A study of Mus musculus with 18 samples.

Results

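Integrins are the main cell-surface receptors for the extracellular matrix, and laminins are the cross-shaped proteins that build the basement membrane under epithelia. Here their RNA levels are described in cells of gastrulating mouse embryos that were sorted by their level of FoxA2, a transcription factor of the forkhead family needed for node, notochord and endoderm. Members were all genes of the deposited table whose symbol names an integrin α subunit, an integrin β subunit or a laminin chain, apart from Lama1, Lamb1 and Lamc1, the chains of laminin-111. This gave 34 of 24498 genes, namely 18 α subunits, 8 β subunits and 8 laminin chains. The rule used gene names and no measured value, but the members were chosen with earlier results of these data known. Of the 34 members, 26 reached a normalised read count of at least 10 in at least 3 of the 18 libraries and were tested (12 α subunits, 6 β subunits and all 8 laminin chains).

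Embryos were collected at embryonic day 7.5 from mice of a mixed C57Bl6/J x CD-1 background, and both FoxA2 alleles of each embryo carried the red fluorescent protein tagRFP. In WT embryos the fused FoxA2 was otherwise intact (FoxA2-WT-tagRFP), and in ΔHx embryos it lacked 10 amino acids of an α-helix (FoxA2-ΔHx-tagRFP), so no group was free of the tag. About 10 homozygous embryos were pooled per sort after the extra-embryonic part was cut off, and embryos were not sexed. Red fluorescence defined 3 gates: High, above the signal of heterozygous cells; Mid, between autofluorescence and that level; and Neg, without signal. The 6 combinations of allele and gate, called WT High, WT Mid, WT Neg, ΔHx High, ΔHx Mid and ΔHx Neg, each had 3 biological replicates, and each library held the RNA of about 1000 of the 2500 to 5000 sorted cells. Since embryos were pooled unsexed, the sex mix of each pool is not given, and its part in the results was not tested.

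Each integrin is a pair of 1 α and 1 β subunit, and the pair decides which ligand is bound. As background, α3, α6 and α7 pair with β1 (α6 also with β4) as laminin receptors. α5β1 is the classical fibronectin receptor, αv, α8 and αIIb recognise the RGD motif in fibronectin, vitronectin and nephronectin, α1 and α10 bind collagens with β1, and β2 and its partners belong to leukocytes. A laminin is a trimer of an α, a β and a γ chain; in the gastrulating embryo laminin-111 and laminin-511 (with the chain from Lama5) line the basement membrane between epiblast, mesoderm and endoderm. RNA levels of single subunits do not show which pairs or trimers formed.

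Reads in genes per library ranged from 12302196 to 17194136, and detected genes from 15649 to 17917, with the fewest in ΔHx High replicate 3. Foxa2 itself followed the gates: it was at 2483, 1742 and 1556 in WT High, 871, 812 and 621 in WT Mid and 40.6, 20.3 and 23.6 in WT Neg, and at 1848, 2078 and 2385, 547, 611 and 1229 and 62.5, 55.1 and 43.4 in the same gates of ΔHx. The deletion is too short for a count per gene to check it. Marker genes differed in sum between the gates. The 9 node and notochord markers summed to 26388 to 40859 in WT High and 1711 to 3424 in WT Neg. They include Foxa2, so part of this difference follows from the sort itself. The 12 visceral endoderm markers summed to 46745 to 55480.0 in WT Mid and 2897 to 3477 in WT Neg. The 8 mesoderm markers summed to 397 to 1186 in WT High, 5614 to 12064 in WT Mid and 7483 to 8557 in WT Neg, and none of the markers of these 3 lists was at 0 in all libraries of a WT group. ΔHx gates had sums of the same order, except that the visceral markers were at 2029 to 6083 in ΔHx High against 4443 to 10301 in WT High. One library stood apart: the 11 parietal endoderm markers, which include Lama1 and Lamb1, summed to 225337 in WT Mid replicate 1, to 39276 and 62235 in WT Mid replicates 2 and 3, and to 18119 to 23843 in ΔHx Mid. The part of these markers in the results was not tested. In sorted pools fewer cells of a type and less RNA per cell cannot be told apart.

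Levels between genes were compared as normalised reads per kb of merged exons (mean ± SD, n = 3). Among α subunits Itga5 was highest in all 6 groups, at 168 ± 6.39 in WT High, 293 ± 73.9 in WT Mid and 140.1 ± 3.28 in WT Neg. Behind it, the order depended on the gate. In WT High, Itga3 was second (118 ± 28.5) and above Itgav (53.7 ± 10.7) and Itga6 (42.2 ± 2.80); the last pair of means differed by about their spread. In WT Mid, Itgav (69.1 ± 4.83), Itga6 (62.1 ± 20.9) and Itga3 (53.7 ± 26.6) did not differ beyond their spread, and the same 3 genes were close in WT Neg (49.2 ± 6.50, 37.9 ± 7.08 and 52.3 ± 13.5). Among β subunits Itgb1, the common partner of most α subunits, was far above all others, at 741 ± 30.5, 1016 ± 67.7 and 903 ± 57.8 per kb in WT High, Mid and Neg. Itgb5 followed at 90.2 ± 38.6, 91.5 ± 35.3 and 88.0 ± 15.0, and no other β subunit passed 7.68. Among the laminin chains Lama5 led in every group, at 297 ± 25.1 in WT High and 102 ± 2.36 in WT Neg, followed by Lamb2. The next chain was Lamb3 in High and Mid (57.4 ± 4.50 in WT High) and Lama4 in Neg (15.1 ± 1.24 in WT Neg). ΔHx groups had the same leading genes.

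**Figure D1:**
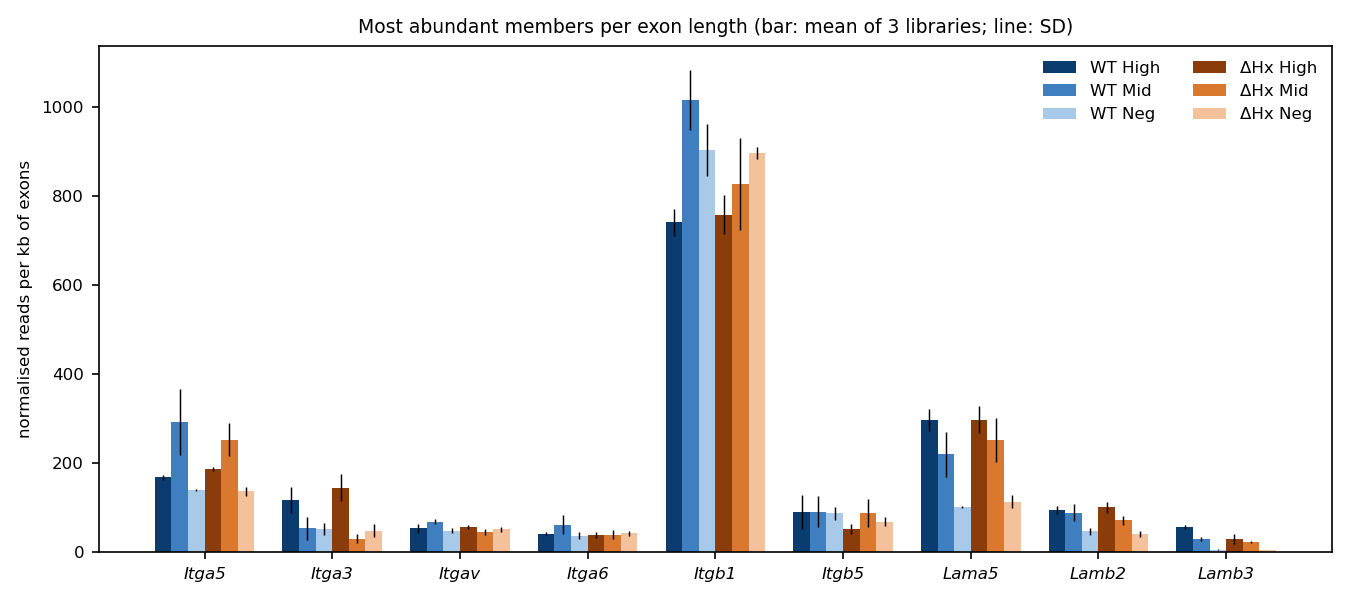
Normalised reads per kb of merged exons (vertical axis, linear from 0) for the most abundant members in the 6 groups. Bars are means of 3 libraries and lines are SD. Itgb1 is the highest member in every group, and Lama5 is about 297 per kb in WT High and 102 in WT Neg.

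The gates were then compared within each allele, which asks how the receptors and their laminin ligands differ with the level of FoxA2. Changes are differences of log2(normalised read count + 1). For low genes these can be smaller or larger than with other methods. Itga7 in WT High against Neg was log2 -4.02, and -5.19 with edgeR on the recovered reads. Lama4 in ΔHx Mid against Neg was log2 -4.94, and -4.18 with edgeR. A gene is called higher or lower at an adjusted p under 0.05 with limma, adjusted by Benjamini-Hochberg over all 14711 genes tested. From Neg to High in WT, 6 of the 26 tested members rose and 5 fell; of all genes tested 22.6% rose and 21.8% fell. In ΔHx 6 rose and 6 fell (all genes 21.5% and 21.1%). From Neg to Mid the counts were 6 higher and 4 lower in WT (all genes 17.4% and 15.4%) and 4 and 5 in ΔHx (17.9% and 16.5%). From Mid to High they were 6 and 3 in WT (12.1% and 12.4%) and 6 and 3 in ΔHx (13.3% and 12.3%). The shares of members called from Neg to High, 6 and 5 of 26, were thus near those of all genes. Medians over the tested members were 0.19, 0.056 and 0.11 for High against Neg, Mid against Neg and High against Mid in WT, and those over all genes tested were 0.018, -0.0018 and -0.014. Without WT Mid replicate 1, 5 rose and 2 fell from Neg to Mid in WT, and 3 rose and 3 fell from Mid to High. Without WT Neg replicate 2, 2 members fell from Neg to High and 2 from Neg to Mid in WT. The High and Mid comparisons with Neg share the same Neg libraries, and no member was called in opposite directions with the 2 alleles in any of the 3 gate steps.

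The laminin chains called in at least 1 gate step were Lama5, Lamb3, Lamb2, Lama2 and Lama4. The share of all genes called in at least 1 step was not counted. From Neg to High in WT alone 22.6% of all genes tested rose and 21.8% fell. Lama5, the α chain of laminin-511 (chromosome 2, 180176373 to 180225859, minus strand, mm10), was at 3202, 3714 and 3239 in the WT High libraries, 2104, 3174 and 2245 in WT Mid and 1185, 1163 and 1131 in WT Neg. All High and Mid libraries lay above all Neg libraries, and the lowest High library stood just above the highest Mid library. It rose from Neg to High (log2 1.54, SE 0.15, adjusted p = 8.02e-08) and from Neg to Mid (log2 1.09, SE 0.15, adjusted p = 1.48e-05). In ΔHx the values were 3031, 3413 and 3719.9 in High, 2332, 2860.0 and 3441 in Mid, against 1141, 1294 and 1468 in Neg, with High and Mid overlapping each other and both above Neg (log2 1.38, adjusted p = 3.92e-07 for High against Neg; log2 1.13, adjusted p = 9.90e-06 for Mid against Neg). The smaller step from Mid to High was called in WT (log2 0.45, SE 0.15, adjusted p = 0.0286) but not in ΔHx (log2 0.25, adjusted p = 0.232), and the difference between these steps was not past the threshold (adjusted p = 0.884). The WT call was lost without WT High replicate 2, or WT Mid replicate 1 or 3 (highest adjusted p = 0.133) and with the compared groups alone (0.0915).

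Lamb3, the β chain of the epithelial laminin-332 (chromosome 1, 193207699 to 193343878, plus strand), showed the largest rise among the laminin chains. It was at 345, 393 and 399.7 in WT High, 203, 169 and 230.1 in WT Mid and 29.6, 50.7 and 38.9 in WT Neg, so the 3 gates did not overlap and stood in the order of FoxA2. The change was log2 3.25, SE 0.27, adjusted p = 1.15e-08 from Neg to High, log2 2.33, SE 0.27, adjusted p = 2.12e-06 from Neg to Mid and log2 0.92, SE 0.27, adjusted p = 0.0153 from Mid to High. The last call was lost without WT Mid replicate 2 (adjusted p = 0.0662). In ΔHx it was at 245, 251 and 119 in High, 171, 146 and 136 in Mid, against 42.4, 40.1 and 34.1 in Neg. High and Mid were again above Neg (log2 2.30, adjusted p = 1.22e-06 and log2 1.93, adjusted p = 2.15e-05) but overlapped each other, since ΔHx High replicate 3 was lowest of both groups. The step from Mid to High in ΔHx was called without ΔHx High replicate 3 (adjusted p = 0.0389). Lama3, the α chain of laminin-332, had group means of 12.6 in WT High and 4.94 in WT Neg (log2 1.38, adjusted p = 0.340). In ΔHx it was at 26.3, 46.2 and 2.47 in High and 4.65, 0.975 and 0 in Mid (log2 2.88, adjusted p = 0.0664). limma called none of its gate steps with either allele; High against Mid in ΔHx was called without ΔHx High replicate 3, or ΔHx Mid replicate 1 (highest adjusted p = 0.0469) and with pseudocount 5 (0.0454), quantile normalisation (0.0274), DESeq2 (0.0321). High against Neg in ΔHx was called without ΔHx High replicate 3 (adjusted p = 0.0261), and High against Mid in WT without WT Mid replicate 3 (adjusted p = 0.0187).

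Lamb2, the β chain of laminin-521 (chromosome 9, 108479736 to 108490530, plus strand), was at 548, 545 and 639 in WT High, 656, 559 and 416 in WT Mid and 265, 342 and 252 in WT Neg. High and Mid lay at the same level and above every Neg library. It rose in High (log2 1.02, SE 0.18, adjusted p = 0.000117) and in Mid (log2 0.91, SE 0.18, adjusted p = 0.000642) over Neg. With ΔHx it stood at 620.0, 693 and 542, 432, 502 and 375 and 214, 243 and 298 in High, Mid and Neg and rose likewise (log2 1.30, adjusted p = 8.95e-06 and log2 0.79, adjusted p = 0.00200). The ΔHx step from Mid to High was also called (log2 0.50, adjusted p = 0.0430). That call was lost without ΔHx High replicate 1 or 2, or ΔHx Mid replicate 1 or 3 (highest adjusted p = 0.167) and with no filter (0.0599). The calls of Lama5, Lamb2 and Lamb3 against Neg stood with both alleles under every alternative and without any 1 library.

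Lama2 and Lama4, α chains best known from muscle and from vessels and mesenchyme, went in opposite directions. Lama2 (chromosome 10, 26980036 to 27619758, minus strand) was at 73.1, 53.7 and 74.4 in WT High, 28.8, 12.4 and 13.1 in WT Mid and 28.3, 5.07 and 15.4 in WT Neg. High stood above both other gates, and Mid and Neg overlapped. It rose from Neg to High in WT (log2 2.24, SE 0.59, adjusted p = 0.00440) and in ΔHx (log2 1.99, adjusted p = 0.0103), where it was at 43.0, 25.4 and 80.0 in High and 16.7, 9.33 and 7.23 in Neg. The ΔHx call was lost without ΔHx High replicate 3 (adjusted p = 0.0589). High also exceeded Mid (log2 1.92, adjusted p = 0.0214 in WT; log2 3.05, adjusted p = 0.000739 in ΔHx). That WT call was lost without WT High replicate 1 or 3, or WT Mid replicate 2 or 3 (highest adjusted p = 0.0768). High against Neg in WT was log2 1.62 without WT Neg replicate 2.

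Lama4 (chromosome 10, 38965515 to 39110188, plus strand) was highest in Neg, at 176, 199 and 170.3 in WT, against 38.4, 20.0 and 67.4 in WT High and 53.4, 28.7 and 24.4 in WT Mid. No Neg library overlapped the other gates. It fell in High (log2 -2.25, SE 0.75, adjusted p = 0.0203) and in Mid (log2 -2.40, SE 0.75, adjusted p = 0.0189). The High call was lost without WT High replicate 2, or WT Neg replicate 2 (highest adjusted p = 0.0935). The Mid call was lost without WT Mid replicate 2 or 3, or WT Neg replicate 2 (highest adjusted p = 0.0561). In ΔHx it was at 159.6, 165 and 258 in Neg, 30.7, 47.1 and 16.5 in High and 10.2, 20.5 and 0 in Mid, and fell in both (log2 -2.67, adjusted p = 0.00737 and log2 -4.94, adjusted p = 6.28e-05). The Mid value rests in part on ΔHx Mid replicate 3, which had no read: it was log2 -5.83 without ΔHx Mid replicate 2 or -3.62 without ΔHx Mid replicate 3. ΔHx High exceeded ΔHx Mid (log2 2.26, adjusted p = 0.0326). That step was lost without ΔHx High replicate 1 or 2, or ΔHx Mid replicate 3 (highest adjusted p = 0.209) and with no filter (0.0549), the compared groups alone (0.139), edgeR (0.0778). Without ΔHx Mid replicate 3 it was log2 0.94. Lamc3, a rare γ chain, had group means of 0.609 to 8.47 and was not called. Mid against Neg in WT was called with quantile normalisation (adjusted p = 0.0288), the compared groups alone (0.0282).

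**Figure D2:**
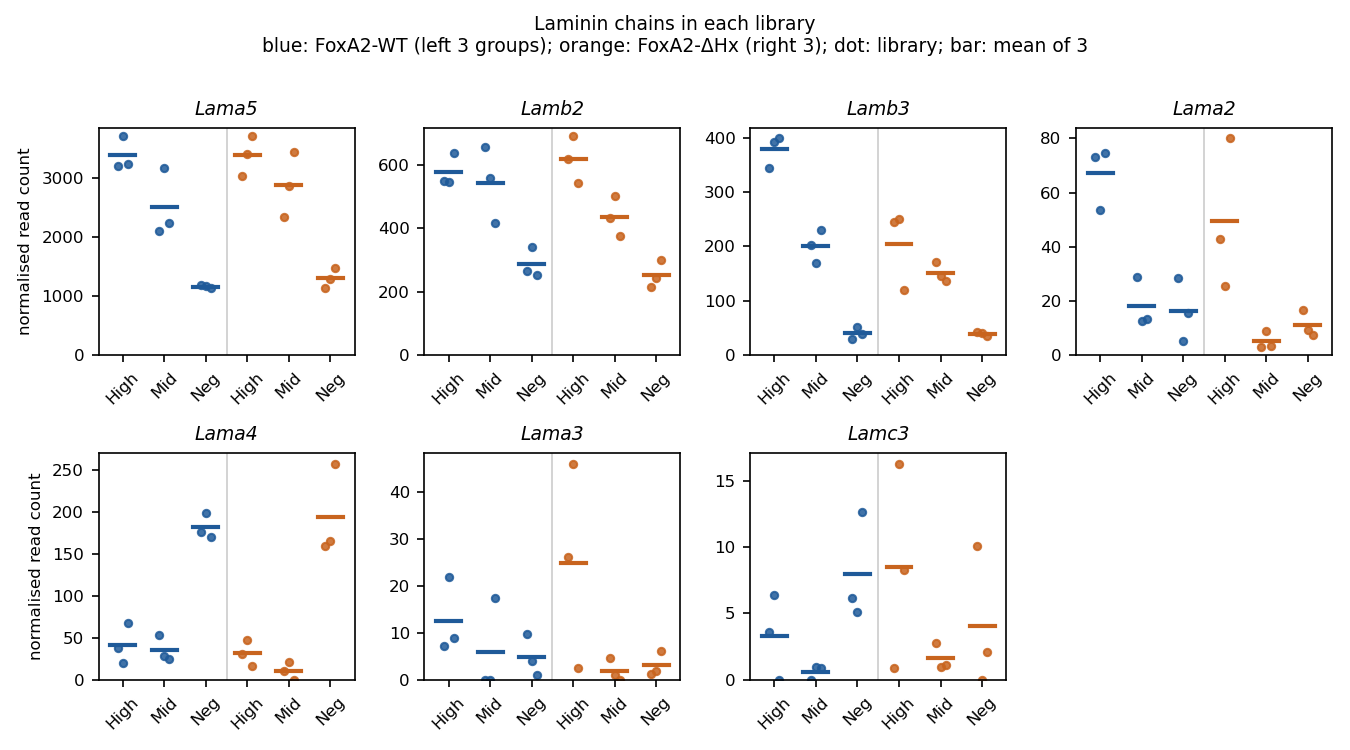
Normalised read counts (vertical axes, linear from 0, 1 scale per gene) of laminin chains in the 6 groups. Dots are libraries and bars are means of 3. Lama5, Lamb2 and Lamb3 lie higher in High and Mid than in Neg with both alleles, Lama2 is highest in High, and Lama4 is highest in Neg.

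The chains left out of the members had another pattern. Lama1 was at 30072, 4065 and 7011 in WT Mid, 225, 371 and 317 in WT High and 658, 504 and 664 in WT Neg, so it peaked in Mid and was lowest in High, and WT Mid replicate 1 was far above the other Mid libraries. Lama1, Lamb1 and Lamc1 all rose from Neg to Mid in WT (log2 3.97, 2.79 and 2.65; adjusted p at most 0.000140), and from Neg to High none of them was called. Without WT Mid replicate 1 these rises were log2 3.14, 2.06 and 1.77. Lama5, Lamb2 and Lamb3 were called higher in both.

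The windows before the starts of Lama5, Lamb3 and the α subunit gene Itga5 are shown because these 3 members were called higher in Mid than in Neg with both alleles and their windows hold at most 1 base of an annotated exon. Each is the 250 bases before the RefSeq start (GRCm38.p6), 5′ to 3′ on the gene's strand: Lama5 at chr2:180225860-180226109 (minus), Lamb3 at chr1:193301744-193301993 (plus) and Itga5 at chr15:103366792-103367041 (minus). Capitals would mark a core forkhead word (the words TGTTTAC and TGTTTGC, or with A as the second base the words TATTTAC and also TATTTGC, on either strand), and there is none.
Lama5: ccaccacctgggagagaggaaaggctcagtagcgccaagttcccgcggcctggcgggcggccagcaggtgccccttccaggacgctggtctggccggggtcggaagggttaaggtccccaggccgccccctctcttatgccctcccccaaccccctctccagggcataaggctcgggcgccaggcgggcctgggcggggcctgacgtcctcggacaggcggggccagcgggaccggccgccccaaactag
Lamb3: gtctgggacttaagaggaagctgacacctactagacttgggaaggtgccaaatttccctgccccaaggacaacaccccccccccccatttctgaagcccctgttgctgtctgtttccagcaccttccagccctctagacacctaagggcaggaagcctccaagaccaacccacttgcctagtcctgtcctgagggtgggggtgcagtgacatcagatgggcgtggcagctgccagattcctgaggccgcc
Itga5: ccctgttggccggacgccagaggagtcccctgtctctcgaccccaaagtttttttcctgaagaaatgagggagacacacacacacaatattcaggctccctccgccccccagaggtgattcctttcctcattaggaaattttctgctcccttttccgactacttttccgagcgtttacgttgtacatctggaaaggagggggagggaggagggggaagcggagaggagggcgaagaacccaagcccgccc
Windows of 22 of the 34 members were searched, 25 windows in all, and 0 of them held one of the 4 words. Over all 32851 RefSeq windows of this length 3903 did, or 11.9%. The other members had no window searched, so the count of 0 and this share were not compared. G and C made up 72.4% of the Lama5 window, 58.8% of the Lamb3 window and 55.6% of the Itga5 window.

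Among the laminin-binding α subunits, Itga3, a receptor for laminin-511 and laminin-332 with β1 (chromosome 11, 95044474 to 95076801, minus strand), was at 486, 744 and 787 in WT High, 133, 415 and 373 in WT Mid and 212, 359 and 324 in WT Neg. Every High library was above every Mid and Neg library. It rose from Neg to High in WT (log2 1.17, SE 0.35, adjusted p = 0.0109) and in ΔHx (log2 1.59, SE 0.35, adjusted p = 0.00119), where it was at 803, 670.2 and 1014 in High, 204, 114 and 211 in Mid, against 241, 218 and 375 in Neg. The WT call was lost without WT Neg replicate 1 (adjusted p = 0.0621). High also exceeded Mid (log2 1.26, adjusted p = 0.0126 in WT; log2 2.26, adjusted p = 9.98e-05 in ΔHx). The WT step from Mid was lost without WT Mid replicate 1 (adjusted p = 0.0831) and with the compared groups alone (0.0684). It was log2 0.74 without WT Mid replicate 1.

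Itga6, the partner of β1 and of the hemidesmosomal β4 (chromosome 2, 71745616 to 71858416, plus strand), was at 352, 399.6 and 392 in WT High, 778, 460.4 and 443 in WT Mid and 339, 408 and 279.9 in WT Neg. WT Mid replicate 1 stood above all other libraries. The rise from Neg to Mid (log2 0.68, SE 0.22, adjusted p = 0.0239) was the one call of this gene. It was lost without WT Mid replicate 1, or WT Neg replicate 1 or 3 (highest adjusted p = 0.161) and with quantile normalisation (0.0555), the compared groups alone (0.0554). Without WT Mid replicate 1 the difference was log2 0.42. In ΔHx all groups overlapped, with 409, 249 and 429 in Mid, against 364, 357 and 448 in Neg (log2 -0.14, adjusted p = 0.667).

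Itga7, a laminin receptor of muscle (chromosome 10, 128933818 to 128958282, plus strand), was low everywhere and highest in Neg: it was at 13.5, 26.4 and 44.4 in WT Neg, 1.20, 0.910 and 0 in WT High and 0, 0 and 10.5 in WT Mid. No Neg library overlapped the other gates. It fell in High (adjusted p = 0.00208) and in Mid (log2 -3.54, adjusted p = 0.00797). With 2 reads in WT High and 86 in WT Neg, Neg was 45.4 times High (exact 95% interval 12.2 to 381, counting error only). In ΔHx it was at 23.4, 15.9 and 37.2 in Neg, 4.38, 1.81 and 0 in High and 1.86, 0 and 7.98 in Mid, and fell in both (log2 -3.34, adjusted p = 0.00851 and log2 -3.09, adjusted p = 0.0181). The ΔHx Mid call was lost without ΔHx Mid replicate 2, or ΔHx Neg replicate 3 (highest adjusted p = 0.0983). Single libraries moved these values: Mid against Neg in WT was log2 -2.95 without WT Mid replicate 1, -2.95 without WT Mid replicate 2 or -4.71 without WT Mid replicate 3, that in ΔHx -2.31 without ΔHx Mid replicate 2 or -3.89 without ΔHx Mid replicate 3, and High against Neg in ΔHx -2.69 without ΔHx High replicate 3.

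Among receptors for fibronectin and other RGD ligands, Itga5, the α chain of the fibronectin receptor (chromosome 15, 103344286 to 103366763, minus strand), was at 1863, 1293 and 1184 in WT Mid, 798, 831 and 861 in WT High and 684, 709.8 and 680.3 in WT Neg. The 3 gates did not overlap, with Mid highest and Neg lowest. It rose from Neg to Mid (log2 1.04, SE 0.14, adjusted p = 1.15e-05) and fell from Mid to High (log2 -0.77, SE 0.14, adjusted p = 0.000343). The difference between High and Neg in WT was not called (log2 0.26, adjusted p = 0.126), but it was with equal totals without Rn45s (adjusted p = 0.0311). In ΔHx the order was the same, with 1044, 1308 and 1393 in Mid, 915, 947 and 915 in High and 665, 733 and 632 in Neg (log2 0.87, adjusted p = 8.11e-05 for Mid against Neg; log2 0.45, adjusted p = 0.0113 for High against Neg; log2 -0.42, adjusted p = 0.0290 for High against Mid). The last of these was lost without ΔHx High replicate 1, 2 or 3, or ΔHx Mid replicate 2 or 3 (highest adjusted p = 0.128).

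Itgav, whose αv chain pairs with several β subunits as a vitronectin and fibronectin receptor (chromosome 2, 83724397 to 83806916, plus strand), was at 782, 684 and 762 in WT Mid, 468, 568 and 697 in WT High and 574, 448 and 563 in WT Neg. Mid lay above Neg without overlap and overlapped High. It rose from Neg to Mid in WT (log2 0.50, SE 0.15, adjusted p = 0.0146). This call was lost without WT Neg replicate 2 (adjusted p = 0.0889). In ΔHx, Mid was at 519, 531 and 414 and Neg at 498, 567 and 610.1, and no gate step was called (log2 -0.20, adjusted p = 0.324). High was below Mid in WT without WT High replicate 3 (adjusted p = 0.0185).

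Itga8, the nephronectin receptor subunit (chromosome 2, 12106632 to 12301922, minus strand), was highest in Neg, at 148, 139.9 and 193 in WT Neg, 115, 107 and 98.5 in WT Mid and 64.7, 92.8 and 65.6 in WT High. The WT gates did not overlap. It fell from Neg to High (log2 -1.10, SE 0.42, adjusted p = 0.0389). The WT call was lost without WT High replicate 1 or 3, or WT Neg replicate 1, 2 or 3 (highest adjusted p = 0.126) and with no filter (0.0586), equal totals without Rn45s (0.0618). In ΔHx it was at 239, 225 and 183 in Neg, 134, 132 and 35.3 in Mid and 106, 33.5 and 50.3 in High, and fell in High (log2 -1.90, SE 0.42, adjusted p = 0.00111) and in Mid (log2 -1.31, adjusted p = 0.0206). The ΔHx Mid call was lost without ΔHx Mid replicate 3, or ΔHx Neg replicate 1 or 2 (highest adjusted p = 0.155). It was log2 -0.68 without ΔHx Mid replicate 3, and High against Mid in ΔHx was then called (adjusted p = 0.0175).

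Itga2b encodes αIIb (CD41), known from platelets and the earliest blood progenitors (chromosome 11, 102453297 to 102470122, minus strand). It was at 101, 69.2 and 108 in WT High, 2.74, 10.5 and 13.9 in WT Mid and 13.5, 85.2 and 29.9 in WT Neg. Mid was lower than High without overlap, and Neg spanned a range that reached into both. High exceeded Mid in WT (log2 3.41, SE 0.56, adjusted p = 0.000178) and in ΔHx (log2 2.15, adjusted p = 0.00806), where the values were 68.4, 77.0 and 68.4 in High, 16.7, 15.6 and 13.7 in Mid, against 30.1, 53.2 and 81.6 in Neg. Mid was below Neg in WT (log2 -1.97, adjusted p = 0.0110) and in ΔHx (log2 -1.67, adjusted p = 0.0273). The WT call was lost without WT Mid replicate 1, or WT Neg replicate 2 (highest adjusted p = 0.0897) and with the compared groups alone (0.0781). It was log2 -1.37 without WT Mid replicate 1, -2.58 without WT Neg replicate 1 or -1.30 without WT Neg replicate 2. The ΔHx call was lost without ΔHx Mid replicate 2 or 3, or ΔHx Neg replicate 2 or 3 (highest adjusted p = 0.122). High against Neg passed in WT alone (log2 1.44, SE 0.56, adjusted p = 0.0436). That call was lost without WT High replicate 1, 2 or 3, or WT Neg replicate 1 or 3 (highest adjusted p = 0.255) and with no filter (0.0749), quantile normalisation (0.151), the compared groups alone (0.0511), edgeR (0.0889), DESeq2 (0.0671). It was log2 0.83 without WT Neg replicate 1 or 2.12 without WT Neg replicate 2, and High against Mid in WT was log2 2.81 without WT Mid replicate 1.

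Blood and endothelial markers were lower in sum in WT High than in WT Neg. Their 11 genes summed to 307 to 399 in WT High, 250.2 to 296 in WT Mid and 1504 to 3088 in WT Neg. In WT High Hba-x was at 0, and means were 0.303 for the platelet gene Pf4, 0.303 for the embryonic globin Hbb-bh1, 0.910 for the blood regulator Tal1 and 0.295 for the endothelial gene Pecam1. In WT Neg, Hbb-bh1 was at 396 and Tal1 at 220.1. The erythroid and megakaryocyte regulator Gata1 was the exception among these markers, at 286 ± 58.2 in WT High, 118 ± 29.0 in WT Mid and 94.4 ± 87.9 in WT Neg.

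Among collagen receptors, Itga1 (chromosome 13, 114953096 to 115101964, minus strand) was at 77.9, 33.7 and 19.5 in WT High, 177, 171 and 138 in WT Mid and 145, 191 and 112 in WT Neg. High lay below both other gates without overlap. It fell in High against Neg in WT (log2 -1.94, SE 0.50, adjusted p = 0.00367) and against Mid (log2 -2.08, adjusted p = 0.00437). ΔHx libraries held 15.8, 69.7 and 74.2 in High, 279, 255 and 130.0 in Mid, against 109, 162 and 162 in Neg, lower in High than in Mid (log2 -2.24, adjusted p = 0.00249) and in Neg (log2 -1.68, adjusted p = 0.0104). The last call was lost without ΔHx High replicate 1 (adjusted p = 0.0845). It was then log2 -0.97, and High against Mid was log2 -1.53 without ΔHx High replicate 1. Itga10, another collagen receptor, had group means of 4.71 to 10.9 and was not called; 33.5% of its exon bases are shared with the annotated gene Gm42957, so its reads are uncertain.

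Of the remaining α subunits, Itga4 and Itga9, receptors for VCAM1 and fibronectin and for tenascin among other ligands, had group means of 16.6 to 49.8 and 46.8 to 90.4. Itga4 was not called with limma. With DESeq2 it was lower in WT Mid than in Neg and than in High (adjusted p = 0.0460 and 0.0360). The difference from Neg was also called with quantile normalisation, and the step to High with equal totals without Rn45s and with the compared groups alone. Itga9 was called once, lower in ΔHx High (28.9, 48.0 and 63.5) than in ΔHx Mid (90.3, 89.7 and 91.2; adjusted p = 0.0410). This call was lost without ΔHx High replicate 1 or 2, or ΔHx Mid replicate 1, 2 or 3 (highest adjusted p = 0.191) and with no filter (0.0652), the compared groups alone (0.0722). High against Neg in ΔHx was called without ΔHx High replicate 3 (adjusted p = 0.0455) and with quantile normalisation (0.0136). Itgae, the E-cadherin receptor subunit of lymphocytes, stayed between 6.70 and 17.4 in group mean and was not called.

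**Figure D3:**
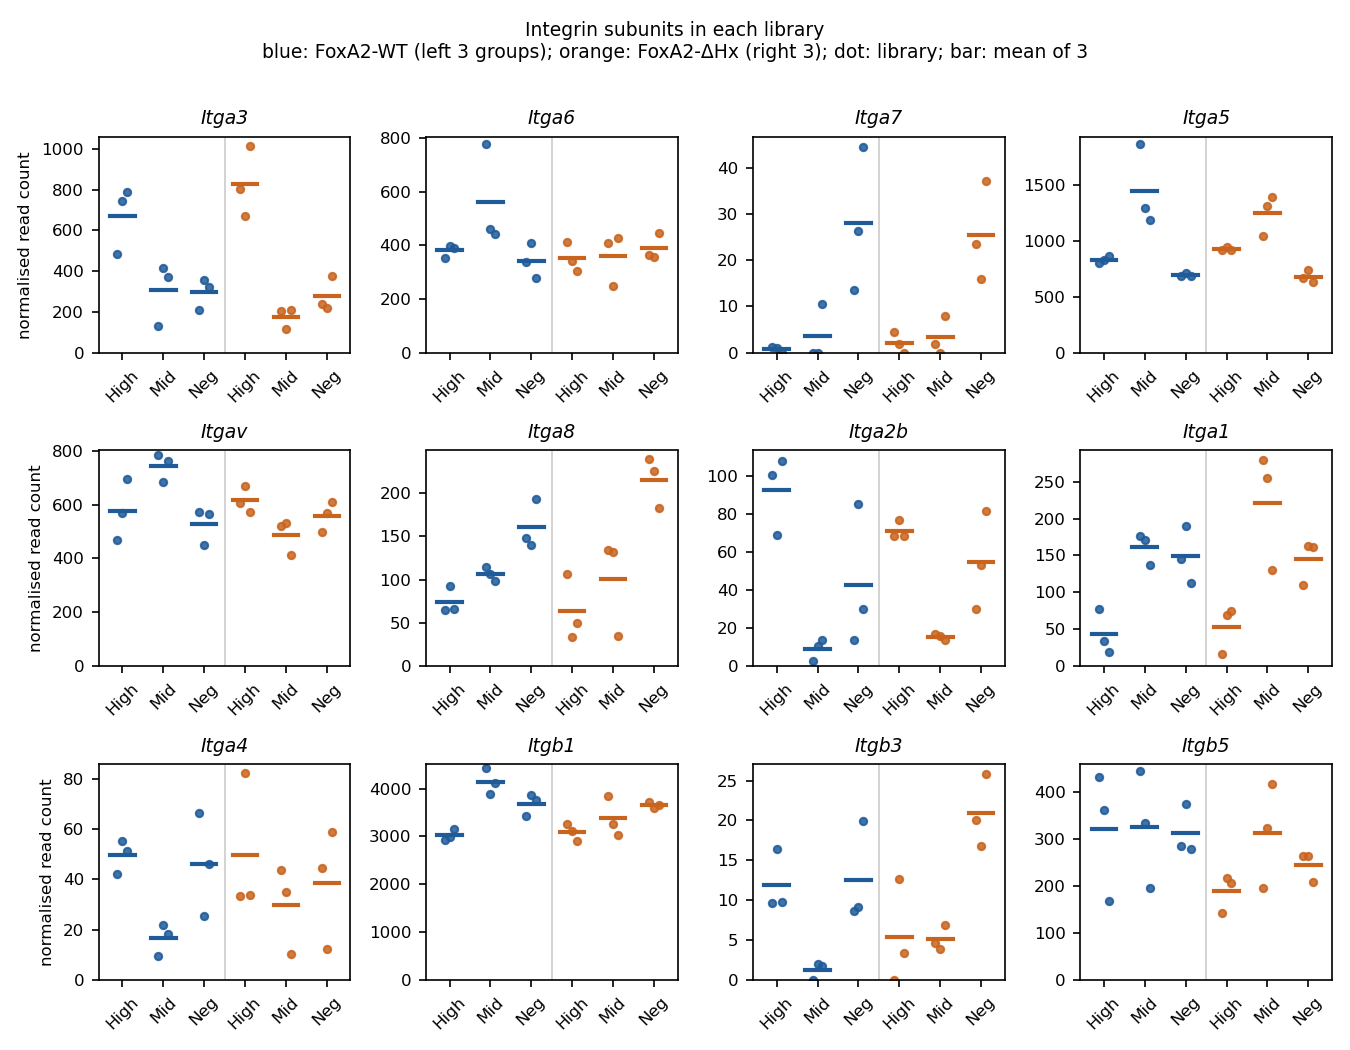
Normalised read counts (vertical axes, linear from 0, 1 scale per gene) of integrin subunits in the 6 groups. Dots are libraries and bars are means of 3. Itga3 is highest in High, Itga5 in Mid, and Itga1 is lowest in High, with both alleles.

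Among the β subunits, Itgb1, the β1 chain (chromosome 8, 128685654 to 128733200, plus strand), was at 2916, 2996 and 3159.7 in WT High, 4439, 3889 and 4113 in WT Mid and 3418, 3865 and 3772 in WT Neg. High lay below the other gates without overlap. It fell in High against Mid (log2 -0.45, SE 0.088, adjusted p = 0.000748) and against Neg (log2 -0.28, SE 0.088, adjusted p = 0.0127). The call against Neg was lost without WT Neg replicate 2 (adjusted p = 0.0588) and with quantile normalisation (0.716), equal totals without Rn45s (0.101). With quantile normalisation Mid exceeded Neg in WT (adjusted p = 0.0129), and High against Neg was log2 -0.040. In ΔHx, Itgb1 was at 3264, 3123 and 2901 in High, 3846, 3253 and 3033 in Mid, against 3712, 3603 and 3652 in Neg (log2 -0.24, adjusted p = 0.0322 for High against Neg). That call was lost without ΔHx High replicate 2 or 3, or ΔHx Neg replicate 1, 2 or 3 (highest adjusted p = 0.118) and with no filter (0.0504), quantile normalisation (0.876), equal totals without Rn45s (0.206).

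Itgb3, the partner of αIIb and αv, was rare, at 9.59, 16.4 and 9.75 in WT High, 0, 1.91 and 1.74 in WT Mid and 8.62, 9.13 and 19.9 in WT Neg. Mid was below both other gates. It fell from Neg to Mid (log2 -2.67, adjusted p = 0.0101) and rose from Mid to High (log2 2.65, adjusted p = 0.0135) in WT. The first call was lost without WT Mid replicate 1, or WT Neg replicate 3 (highest adjusted p = 0.0549). The second call was lost without WT High replicate 2, or WT Mid replicate 1 (highest adjusted p = 0.0657). In ΔHx it was at 0, 12.7 and 3.30 in High, 4.65, 3.90 and 6.84 in Mid, against 20.1, 16.8 and 25.8 in Neg, and High fell below Neg (log2 -2.47, adjusted p = 0.0119). It was lost without ΔHx High replicate 1 (adjusted p = 0.0905) and with edgeR (0.0574). Without ΔHx High replicate 1, which had no read, it was log2 -1.49. Every ΔHx Mid library also lay below every ΔHx Neg library (log2 -1.84, adjusted p = 0.0643). That difference missed the threshold with limma and was called with pseudocount 5 (adjusted p = 0.0151), quantile normalisation (0.0224), the compared groups alone (0.0157), DESeq2 (0.0394).

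Itgb4, the hemidesmosomal partner of α6, was called in ΔHx alone, at 18.6, 16.6 and 6.84 in Mid, 36.8, 36.2 and 26.4 in High and 22.3, 28.9 and 39.2 in Neg. Mid was lower than Neg (log2 -1.13, adjusted p = 0.0472) and High was above Mid (log2 1.28, adjusted p = 0.0329). The first call was lost without ΔHx Mid replicate 2 or 3, or ΔHx Neg replicate 1, 2 or 3 (highest adjusted p = 0.235) and with no filter (0.0948), equal totals without Rn45s (0.0636), the compared groups alone (0.0942), edgeR (0.0727). Without ΔHx Mid replicate 3 it was log2 -0.71. The second call was lost without ΔHx High replicate 1 or 2, or ΔHx Mid replicate 3 (highest adjusted p = 0.173) and with no filter (0.0697), the compared groups alone (0.112), edgeR (0.0537). In WT its group means were 35.4, 22.0 and 27.0 in High, Mid and Neg, with no call. Itgb5, a vitronectin receptor subunit with αv, had group means of 189 to 325 and a wide spread within groups, and was not called. Itgb7 and Itgb8 had group means of 8.27 to 21.3 and 14.4 to 63.8. Neither was called with limma. Itgb7 was higher in WT Mid than in Neg without WT Mid replicate 2, or WT Neg replicate 2 (highest adjusted p = 0.0404) and with pseudocount 5 (0.0461), and higher in WT High than in Neg without WT Neg replicate 2 (adjusted p = 0.0280). Itgb8, which activates latent TGFβ with αv, was at 59.9, 81.0 and 50.5 in WT High, 11.0, 12.4 and 29.6 in WT Mid and 28.3, 32.4 and 25.4 in WT Neg; every High library exceeded the other gates there, but not in ΔHx, where ΔHx High replicate 3 was at 4.12. It was higher in WT High than in Mid with the compared groups alone (adjusted p = 0.0239), DESeq2 (0.0495), and than in Neg with the compared groups alone (adjusted p = 0.0179). In ΔHx, Mid was below Neg without ΔHx Mid replicate 1 or 3 (highest adjusted p = 0.0400) and with quantile normalisation (0.0275), and High above Mid without ΔHx High replicate 3 (adjusted p = 0.0226).

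**Figure D4:**
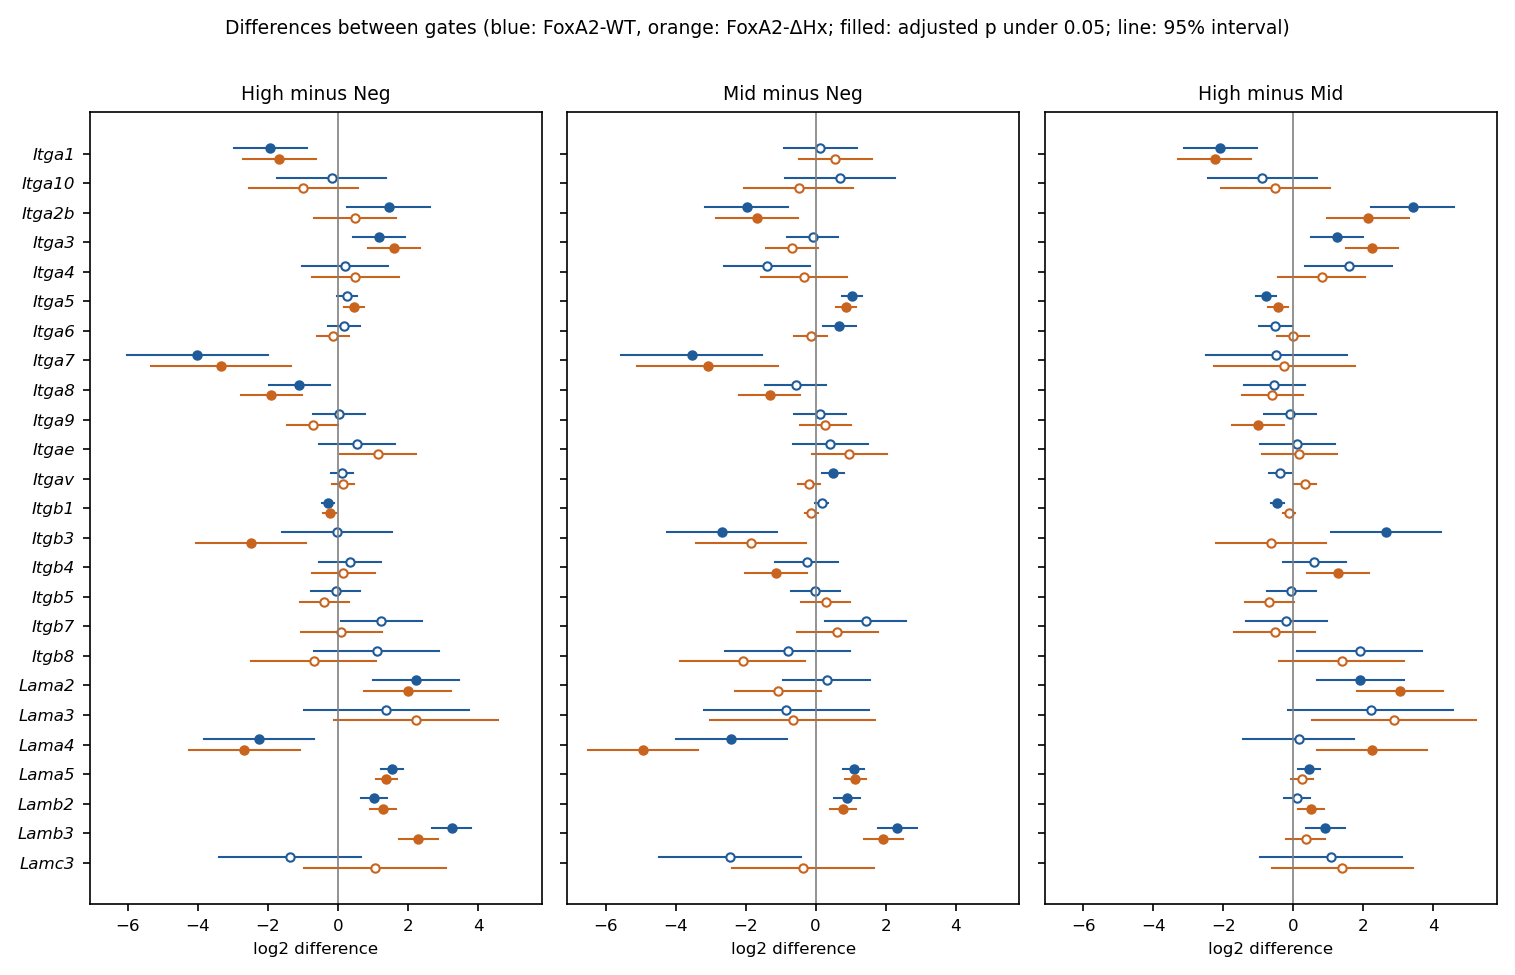
Differences between gates on the log2(value + 1) scale (horizontal axis; points are estimates, lines 95% intervals) for the tested members drawn, by gate step and allele. Lama5, Lamb2 and Lamb3 lie right of 0 against Neg in High and Mid with both alleles, and Lama4 and Itga7 lie left of it.

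The 8 members below the level for testing were Itga11, Itga2, Itgad, Itgal, Itgam, Itgax, Itgb2 and Itgb6. They had 9 (Itgb6) to 78 (Itgal) reads over all 18 libraries, and no library held more than 18 reads of 1 of them. Itgb2, the β2 chain, and Itgad, Itgal, Itgam and Itgax, its α partners, are leukocyte integrins. The 9 leukocyte and macrophage markers summed to 72.7 to 88.7 in WT High and 205 to 240.3 in WT Neg. Ptprc, the pan-leukocyte gene CD45, was at 0 in all libraries of WT High, WT Neg, ΔHx High and ΔHx Neg, so these sums come from the other markers of the list. Whether leukocytes were among the sorted cells was not tested. Of the exon bases of Itgam 68.7% are shared with the annotated gene Gm49368.

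The second comparison set ΔHx against WT within each gate, which asks what the removal of the helix did to these genes. No member was called in High, Mid or Neg with limma; of all genes tested, 0.122% were called in High, 0.401% in Mid and 0.245% in Neg. At an unadjusted p under 0.05 there were 2 of the 26 members in High, 6 in Mid and 0 in Neg, against 7.86%, 7.96% and 4.17% of all genes tested. On the recovered reads edgeR called 0 members in every gate, and DESeq2 called 1, Itgav in Mid. Of all genes tested in Mid, DESeq2 called 42 higher and 137 lower, edgeR 11 and 63, and limma 59 in either direction. Member medians were log2 -0.12 in High, -0.27 in Mid and -0.0067 in Neg, and the medians of all genes tested were 0.00021, 0.0042 and 0.0090.

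The members at an unadjusted p under 0.05 were Lamb3 and Itgb3 in High and Itgav, Itgb1, Lama4, Lama2, Itga6 and Itgb3 in Mid. Lamb3 in High was at 345, 393 and 399.7 in WT and 245, 251 and 119 in ΔHx. All 3 ΔHx libraries lay below all 3 WT libraries, with ΔHx High replicate 3 lowest (log2 -0.96, 95% interval -1.52 to -0.40, adjusted p = 0.263). Without that library the difference was log2 -0.61. Itgav in Mid was at 782, 684 and 762 in WT and 519, 531 and 414 in ΔHx, again without overlap (log2 -0.61, 95% interval -0.92 to -0.30, adjusted p = 0.0902). WT Mid replicate 1 was the highest WT Mid library of Itgav, and without it the difference was log2 -0.57 (adjusted p = 0.283). DESeq2 put the adjusted p of Itgav at 0.0155. In High, Itgav was not called (log2 0.11, 95% interval -0.20 to 0.42, adjusted p = 0.892), and the difference between these effects did not pass the threshold (log2 0.72, adjusted p = 0.486).

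Also in Mid, Itgb1 was at 4439, 3889 and 4113 in WT and 3846, 3253 and 3033 in ΔHx (log2 -0.30, 95% interval -0.48 to -0.12, adjusted p = 0.206). Lama4 was at 53.4, 28.7 and 24.4 and 10.2, 20.5 and 0 (log2 -2.47, 95% interval -4.04 to -0.90, adjusted p = 0.237), and Lama2 at 28.8, 12.4 and 13.1 and 2.79, 8.78 and 3.42 (log2 -1.70, 95% interval -2.93 to -0.47, adjusted p = 0.357). Without ΔHx Mid replicate 3, which had no read of Lama4, the difference of Lama4 was log2 -1.15. Itga6 was at 778, 460.4 and 443 in WT and 409, 249 and 429 in ΔHx (log2 -0.62, 95% interval -1.08 to -0.16, adjusted p = 0.380). Leaving out WT Mid replicate 1 made this log2 -0.36. None of these 4 genes passed the test over all genes. Their ΔHx libraries lay below the WT libraries without overlap, which is common among genes picked at a low p. Itga9, Itga10 and Lamc3, which were not picked, also had no overlap between alleles in Mid. The share of all genes without overlap was not counted, so the lack of overlap does not set these genes apart. WT Mid replicate 1, the library highest in parietal endoderm markers, was also the highest WT Mid library for Itgb1, Lama4, Lama2 and Itga6.

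Itgb3 was the member at this level that was higher in ΔHx Mid, at 4.65, 3.90 and 6.84 against 0, 1.91 and 1.74 in WT, again without overlap (log2 1.59, 95% interval 0.017 to 3.16, adjusted p = 0.618). These WT Mid values stand for 0, 2 and 2 reads. In High it was at 0, 12.7 and 3.30 in ΔHx and 9.59, 16.4 and 9.75 in WT, which overlapped (log2 -1.69, 95% interval -3.26 to -0.12, adjusted p = 0.607). Without ΔHx High replicate 1, which had no read, the difference in High was log2 -0.71. The difference between the effects in High and Mid was log2 -3.28, adjusted p = 0.601.

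The intervals were wide for low genes: in Mid they ran from -4.04 to 3.16 over the tested members, so changes of several fold in rare subunits were not detectable. For abundant members they were narrower. In High the interval was -0.31 to 0.31 for Lama5, -0.13 to 0.44 for Itga5 and -0.15 to 0.22 for Itgb1. Differences of the ΔHx effect between gates were tested as interactions, and no member was called in any of the 3 (of all genes 0.0136% for High minus Mid, 0% for High minus Neg and 0.0068% for Mid minus Neg). At an unadjusted p under 0.05 the interactions had 3, 2 and 4 members, against 6.13%, 3.15% and 4.32% of all genes tested, and edgeR and DESeq2 called 0 members. Of all genes tested DESeq2 called 21 higher and 5 lower for High minus Mid, 2 and 4 for High minus Neg and 0 and 19 for Mid minus Neg. For High minus Mid edgeR called 1 gene higher and 0 lower, and it called 0 in the other interactions.

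The laminin-111 chains, which were left out of the members, were called lower in ΔHx Mid. Since the members were chosen with earlier results of these data known, this split between laminin chains is not a test. Lama1 was at 1141, 1010.2 and 1432 in ΔHx Mid against 30072, 4065 and 7011 in WT Mid (log2 -3.01, SE 0.44, adjusted p = 0.00375). Lamb1 was at 3442, 3627 and 4158 against 38629, 7184 and 10119 (log2 -1.92, adjusted p = 0.0157), and Lamc1 at 944, 969 and 1679.7 against 19844, 2938 and 3473 (log2 -2.35, adjusted p = 0.0185). The groups did not overlap for any of the 3 genes. With the Mid libraries fitted alone all 3 calls were lost (adjusted p up to 0.526), and those of Lamb1 and Lamc1 were also lost without ΔHx Mid replicate 1 or 2; without WT Mid replicate 1 the changes were log2 -2.17, -1.19 and -1.47. The remaining laminin chains were not called in that comparison; for Lama5, the most abundant of them, ΔHx Mid was at 2332, 2860.0 and 3441 and WT Mid at 2104, 3174 and 2245 (log2 0.20, 95% interval -0.10 to 0.51, adjusted p = 0.844).

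**Figure D5:**
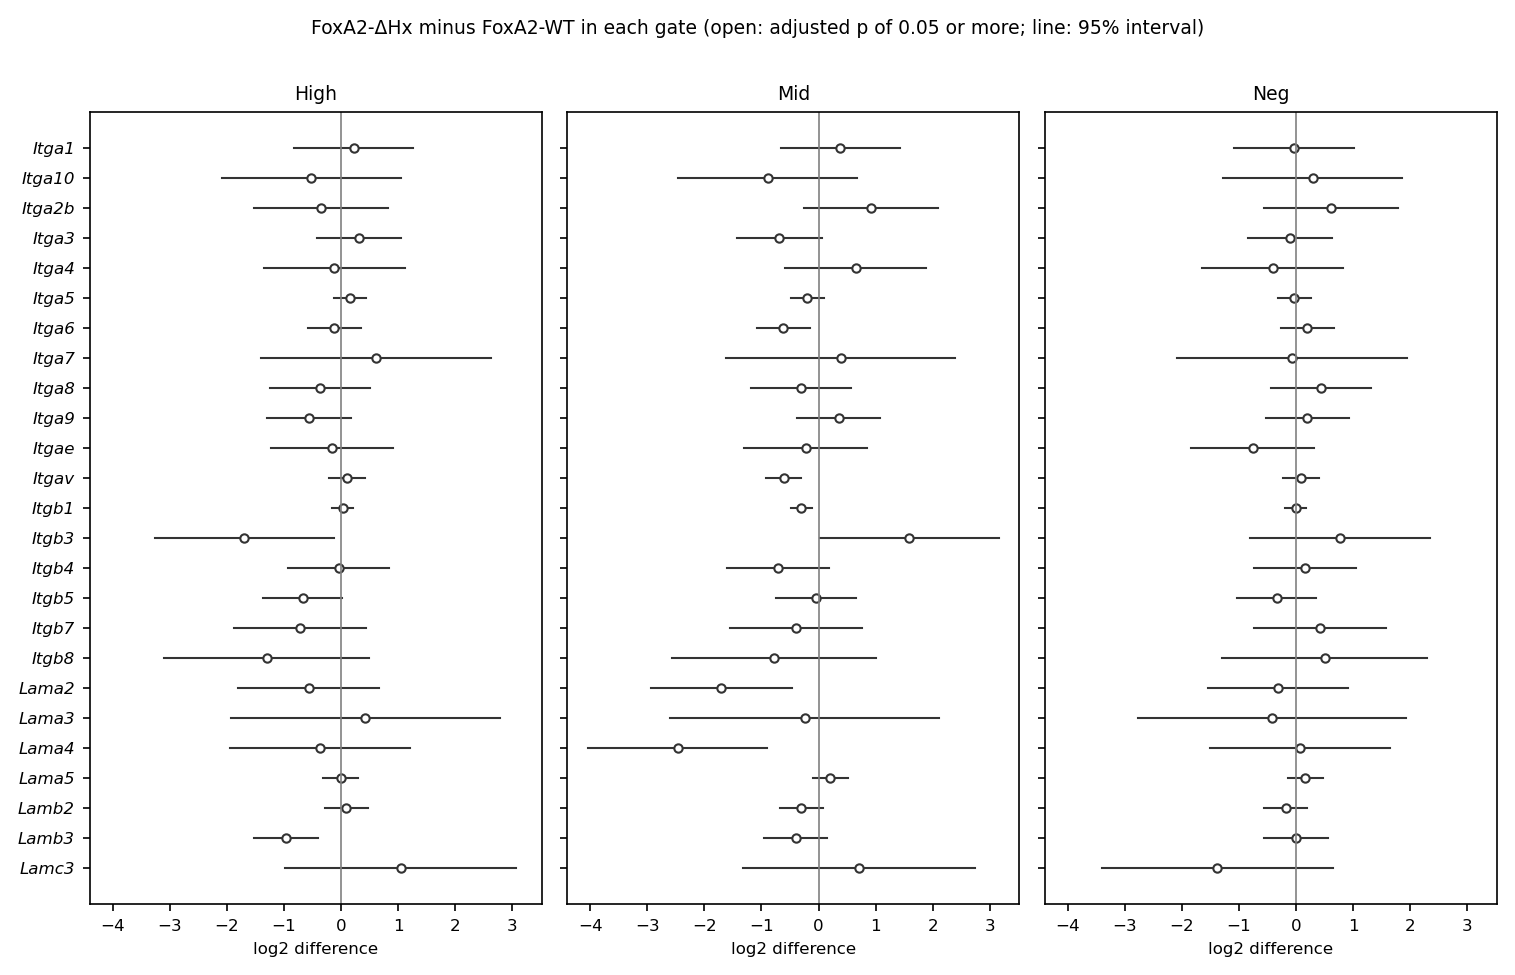
ΔHx minus WT on the log2(value + 1) scale (horizontal axis; points are estimates, lines 95% intervals) for the tested members drawn, in High, Mid and Neg. No member is called in any gate; Lamb3 in High and Itgav in Mid have the smallest p in their gates.

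Genes that work with these receptors were counted from 4 lists. Of all genes tested, 22.6% rose and 21.8% fell from Neg to High in WT and 17.4% and 15.4% from Neg to Mid (in ΔHx 21.5% and 21.1%, and 17.9% and 16.5%), and the counts of the lists are to be read against these shares. Of 15 tested basement membrane partners (collagen IV, nidogens, perlecan and others), 5 rose (33.3%) and 3 fell (20.0%) from Neg to High in WT, and 9 rose (60.0%) and 2 fell (13.3%) from Neg to Mid. In ΔHx the counts were 5 and 3 for High and 8 and 1 for Mid. WT list medians were log2 0.67 and 0.99. The calcium-binding matrix protein Smoc1 rose from Neg to High (2092 ± 377 against 333 ± 75.9; log2 2.66, adjusted p = 3.15e-10), and the basement membrane collagens Col4a6 (log2 -1.45, adjusted p = 0.00313) and Col18a1 (log2 -1.31, adjusted p = 0.000501) fell. Nid1, nidogen, which links laminin to collagen IV, was at 16229, 2245 and 3437 in WT Mid and 153, 186 and 188 in WT Neg (log2 4.83, adjusted p = 1.70e-07). Col4a1, a chain of collagen IV, was at 68389, 12276 and 21480.2 and 2344, 2373 and 2500.0 (log2 3.45, adjusted p = 6.01e-07). WT Mid replicate 1 stood far above the others, and without it the rises from Neg to Mid were log2 3.98 and 2.76. 5 of the 15, Col4a1, Col4a2, Nid1, Sparc and Tinagl1, were lower in ΔHx Mid than in WT Mid, for Nid1 log2 -3.55, adjusted p = 0.000843, where 0.326% of all genes tested were lower. Without WT Mid replicate 1 the differences were log2 -2.70 for Nid1, -1.36 for Col4a1 and -1.35 for Sparc, and Tinagl1 was no longer called (log2 -2.10, adjusted p = 0.0710). Without ΔHx Mid replicate 1 or 2 the calls of Col4a1, Sparc and Tinagl1 were lost. With the Mid libraries fitted alone the calls of Nid1, Col4a1, Sparc and Tinagl1 were lost (adjusted p up to 0.529). Col4a1, Col4a2 and Sparc are also on the parietal endoderm list, and WT Mid replicate 1 was their highest library.

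Of 27 tested integrin ligands other than laminins, 11 rose (40.7%) and 6 fell (22.2%) from Neg to High in WT and 10 rose (37.0%) and 1 fell (3.70%) from Neg to Mid (list medians log2 0.52 and 0.29). In ΔHx 10 rose and 5 fell in High, and 9 rose and 4 fell in Mid. Vtn, vitronectin, a ligand of αv integrins, was at 1095, 1052 and 1690.2 in WT High, 82.2, 159 and 238 in WT Mid and 18.5, 0 and 0 in WT Neg. It rose in High (log2 8.86, SE 0.79, adjusted p = 3.29e-08) and in Mid (log2 5.77, adjusted p = 1.70e-05). Since WT Neg is near 0, the sizes depend on the pseudocount and on the Neg libraries: with a pseudocount of 5 they were log2 7.23 and 4.18, and without WT Neg replicate 1, the one with reads, 10.29 and 7.20. Postn, periostin, rose in High (140.2 ± 55.3 against 10.3 ± 4.36; log2 3.63, adjusted p = 0.000438). Vcam1, a ligand of α4β1, fell in High (adjusted p = 0.000885), from 12.2 ± 2.32 in WT Neg to 0.607 ± 1.05 in WT High. No ligand was called between alleles in any gate.

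Of 28 tested adaptors that join integrins to actin, 8 rose (28.6%) and 5 fell (17.9%) from Neg to High in WT and 7 rose (25.0%) and 3 fell (10.7%) from Neg to Mid, and the medians were log2 0.093 and 0.10. In ΔHx 9 rose and 6 fell in High, and 6 rose and 3 fell in Mid. Fermt1, the epithelial kindlin that activates β subunits, rose in High (146 ± 20.0 against 36.9 ± 10.3; log2 1.98, adjusted p = 4.05e-05) and in Mid (256 ± 43.1; log2 2.78, adjusted p = 1.62e-06). Fermt3, the kindlin of blood cells, fell in Mid (10.1 ± 2.82 against 34.2 ± 17.8; log2 -1.59, adjusted p = 0.00764). That call was lost without WT Neg replicate 2 (adjusted p = 0.0602). Tln2, a talin, rose in High (2703 ± 329.9 against 952 ± 113; log2 1.50, adjusted p = 6.08e-09), and Ptk2b, a focal adhesion kinase, rose in High (log2 1.87, adjusted p = 4.30e-05) and in Mid (log2 1.54, adjusted p = 0.000555). Of 17 other laminin and hemidesmosome receptors, 8 rose (47.1%) and 2 fell (11.8%) in WT High and 7 rose (41.2%) and 2 fell (11.8%) in WT Mid (medians log2 0.69 and 0.27), with 6 and 1, and 6 and 2, in ΔHx. The tetraspanin Cd9 was at 976 ± 66.2 in WT High, 1649 ± 792 in WT Mid and 335 ± 35.7 in WT Neg and rose in both (log2 1.54, adjusted p = 1.39e-05 and log2 2.19, adjusted p = 4.20e-07). Bcam, a receptor of the Lama5 chain, rose in High (1367 ± 228 against 646 ± 24.6; log2 1.07, adjusted p = 0.000311). Between alleles no gene of these 2 lists was called in any gate.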

How the data were processed

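RNA of sorted cells was made into 18 SMART-Seq2 libraries read from 1 end for 75 bases, per the labels' protocols. SMART-Seq2 keeps no strand, and 12 of the 34 members have exons that overlap another annotated gene, 9 of them on the opposite strand. The unit of the table deposited by the authors is signal, namely reads counted per gene and divided by each library's size factor. Per the submitters' processing notes, mm10, STAR 2.5.2a, HTSeq 0.6.1 and both DESeq and DESeq2 were used, and the annotation used was not given in the sources used here. All 440964 of 440964 gene values were whole multiples of 1 read within 1e-06 reads, 1 read being 0.825 to 1.37 units. The 5 HTSeq counter lines were left out (no feature: 7.17% to 12.1% of all that was counted), and Rn45s, a ribosomal precursor, held 23.7% to 44.0% of reads in genes. Intervals cover counting error only where so stated.

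A gene was tested where 3 or more of the 18 libraries had a value of 10 or more (14711 genes). limma 3.58.1 (R 4.3.3) was fitted to log2(value + 1) with 6 group means over all libraries and a variance trend, two-sided, with Benjamini-Hochberg adjustment per contrast. Within groups, counts of replicates varied beyond counting error (chi-square divided by its degrees of freedom, 5.12 to 105), so no library was a copy, and p-values measure the spread between these pools. Whether equal replicate numbers mark 1 pool of embryos or 1 day is not given in the labels, so samples were not paired in the main fit. Over all groups not every pair of equal numbers deviated together. Within an allele, however, samples correlated best with their own number in 36 of 36 comparisons. The main fit leaves such a pairing out. Values in every library were given for members called between alleles, and for up to 8 called rises and falls per WT gate step whose higher group averaged 20 or more, others being named after their values were seen; up to 4 called genes were taken from each partner list. 1 laminin chain is counted among the members but not reported here or drawn. The members and lists were chosen with earlier results of these data known. Exon lengths and positions come from GENCODE (mouse release M21, mm10). Alternatives were pseudocounts of 0.5 and 5, no filter, a filter at 50, quantile normalisation, equal totals without Rn45s, the compared groups alone, a replicate block, edgeR 4.0.16 and DESeq2 1.42.0 on the recovered reads, and leaving out each library; for partner genes they were added after seeing the data, as was a replicate block within each allele. On these reads edgeR called 8 genes higher and 8 lower for ΔHx against WT in the High gate (11 and 63 for Mid; 9 and 14 for Neg), 3293 and 3175 for WT High against Neg and 2613 and 2104 for WT Mid against Neg. The limma step was tested on simulated data.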

Additional observations from a re-analysis of the deposited data

How the results depend on the processing

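Members made 60 calls between gates, of which 32 kept direction and threshold in every alternative and 32 in every fit without 1 library; none reversed. Pseudocounts of 0.5 and 5 ended 0 calls, no filter 8, quantile normalisation 4, equal totals without Rn45s 4, the compared groups alone 9, edgeR 5 and DESeq2 1; the filter at 50 kept all 51 calls it could test. Gate calls were also gained: 7 with quantile normalisation, 5 with the compared groups alone, 5 with DESeq2, 3 with a pseudocount of 5, 2 with equal totals and 14 over the fits without 1 library. Counts of calls moved by over 1.5 times as follows: DESeq2 gave 1 member lower in ΔHx than WT in Mid (0 with limma), equal totals gave 3 lower in WT High than Neg (5), the filter at 50 gave 2 lower in WT Mid than Neg (4) and 3 in ΔHx (5), and no filter gave 3 higher in ΔHx High than Mid (6). Over all genes DESeq2 called 137 lower in ΔHx than WT in Mid, and limma 48. Causes were not tested beyond the fewer genes the filter leaves.

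Leaving out 1 library gave, in WT, 4 to 7 higher and 2 to 4 lower for High against Neg, 5 to 7 and 2 to 4 for Mid against Neg and 3 to 5 and 3 to 4 for High against Mid; in ΔHx it gave 6 to 6 and 4 to 6, 4 to 4 and 2 to 6, and 3 to 9 and 1 to 2. Calls over all genes changed too: without WT Neg replicate 2, 2709 genes were lower in WT High than Neg, against 3201 with all libraries. The member counts between alleles and of the interactions were 0 in all such fits. Those that moved by over 1.5 times were, in WT, without WT Neg replicate 2 (High and Mid against Neg) or WT Mid replicate 1 (Mid against Neg, High against Mid); in ΔHx, without Mid replicate 2 or 3 or any Neg replicate (Mid against Neg) and without High replicate 1 or 2 or Mid replicate 2 or 3 (High against Mid).

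The replicate block ended 2 calls, Itgb4 in ΔHx Mid against Neg (adjusted p = 0.0574) and Itga9 in ΔHx High against Mid (0.0511), and no other gate call. Over 45 pairs of equal number r ran from -0.17 to 0.29 and 5 exceeded 0.1, so equal numbers did not go together over all groups. Within an allele r was 0.016 to 0.29 over 18 pairs, and in 36 of 36 comparisons a sample correlated best with its own number, a hint from the data that equal numbers within an allele may share a source. The Rn45s shares of replicates 1, 2 and 3 also ranked alike in all WT gates (37.9%, 36.8% and 29.0% in High; 44.0%, 34.9% and 28.6% in Mid; 32.1%, 25.5% and 23.7% in Neg). The ΔHx gates shared no such order. ΔHx High had Rn45s shares of 27.9%, 37.5% and 30.7% for replicates 1, 2 and 3. For ΔHx Mid they were 30.3%, 36.2% and 43.0%. ΔHx Neg alone followed the WT order, at 30.1%, 29.2% and 27.9%. A replicate block within each allele, chosen after seeing the data, ended 0 of the 60 gate calls and added 2, Itga3 lower in ΔHx Mid than Neg (adjusted p = 0.00891) and Itgb5 lower in ΔHx High than Mid (0.0445). Depth limits the rare members: 8 of 34 were too low to test.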
